A study of Mus musculus with 11 samples.

Results

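The genes of the islet hormones were followed in a methylation study of newborn mouse pancreas. A set of 8 symbols was looked up, namely Ins1, Ins2, Gcg, Sst, Ppy, Pyy, Iapp and Ghrl, chosen by name. No measured value was part of the rule, though earlier results of these data were known. They gave 5 of the 25802 rows of the gene table (Ins1, Ins2, Sst, Pyy and Ghrl), 5 of the 24391 rows of the promoter table (Gcg, Sst, Ppy, Pyy and Ghrl), and 26 of the 259716 tiles of 5000 bp, those that overlap a gene or lie within 10 kb of it. Ins1 and Ins2 had no promoter row, Gcg and Ppy had no gene row, and Iapp had neither, so that only tiles near Iapp were measured. The 11 wild type C57BL/6N mice were analysed at postnatal day 0. Pancreata of 5 mice (3 females and 2 males) came from dams injected with 10 mg/kg amphetamine on embryonic days 14.5, 15.5 and 16.5, and those of 6 mice (3 females and 3 males) from dams given saline, called controls. Whole pancreas was used, in which the cells that make these hormones are a minority, and the litter of each mouse was not given in the labels. No RNA was analysed here that could check the tissue by its markers.

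Each hormone is made largely by its own islet cell type: insulin (Ins1 and Ins2 in mice) and the co-secreted islet amyloid polypeptide (Iapp) by β cells, glucagon (Gcg) by α cells, somatostatin (Sst) by δ cells, pancreatic polypeptide (Ppy) by γ cells and ghrelin (Ghrl) by ε cells, which are most numerous around birth. Peptide YY (Pyy) is shared by several of these cells during development and by the gut. In DNA methylation a methyl group sits on the cytosine of a CpG, and dense CpG islands are usually unmethylated while scattered CpGs are usually methylated. The insulin promoters, which are poor in CpG, are known to be unmethylated in β cells and methylated in most other cells.

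Reduced representation bisulfite sequencing reads CpGs close to the cut sites of MspI (CCGG) and TaqI (TCGA), so the values below describe short stretches of each gene. The methylation level of a row is the authors' mean methylation fraction of its region, printed as percent and averaged over mice. It is not the percent of all calls of the row pooled. At Ins1 the lowest control was at 97.8%, which at most 37 calls per control cannot give. Coverage is read here as calls summed over the CpGs of the row. Coverage adds up in this way in the tables: of 14550 promoters that lie inside 1 tile, 14550 had no more coverage than that tile in both treatment groups. Comparing the coverage of overlapping rows therefore showed which stretch a value comes from.

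Stretches in or near which the calls of 6 rows lie are shown because they differ so much in CpG content. For Gcg, Ppy and Ghrl the printed bases are part of a longer region in which the calls can lie, and for Ghrl the coverage does not place them within the promoter row of 2000 bp, which holds 16 CpGs. All are on the mm10 build (GRCm38), written 5′ to 3′ on the strand of the gene in lower case, with each CpG in capitals.
Ins1, chr19:52264823-52264947, coding sequence of the last exon: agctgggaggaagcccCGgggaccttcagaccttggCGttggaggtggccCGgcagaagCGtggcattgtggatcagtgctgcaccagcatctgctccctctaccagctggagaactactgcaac
Sst, chr16:23890615-23890744, coding sequence of the first exon: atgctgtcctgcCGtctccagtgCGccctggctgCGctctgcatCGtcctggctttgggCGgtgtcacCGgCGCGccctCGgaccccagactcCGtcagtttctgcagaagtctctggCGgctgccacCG
Pyy, chr11:102107142-102107345, CpG island over a coding exon: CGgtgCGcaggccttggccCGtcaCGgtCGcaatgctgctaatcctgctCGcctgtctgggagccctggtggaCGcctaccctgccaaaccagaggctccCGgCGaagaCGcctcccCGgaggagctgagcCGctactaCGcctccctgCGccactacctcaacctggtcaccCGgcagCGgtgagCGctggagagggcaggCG
Gcg, chr2:62483654-62483903, upstream of the start site: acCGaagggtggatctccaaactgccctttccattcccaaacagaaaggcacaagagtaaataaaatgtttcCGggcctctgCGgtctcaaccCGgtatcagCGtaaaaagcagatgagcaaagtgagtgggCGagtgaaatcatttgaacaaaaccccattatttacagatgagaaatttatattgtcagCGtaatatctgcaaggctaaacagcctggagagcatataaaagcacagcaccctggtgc
Ppy, chr11:102102670-102102819, far end of the promoter row: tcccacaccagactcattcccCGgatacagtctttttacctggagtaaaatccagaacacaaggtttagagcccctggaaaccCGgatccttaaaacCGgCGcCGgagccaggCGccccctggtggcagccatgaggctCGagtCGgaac
Ghrl, chr6:113719912-113720161, upstream of the RefSeq start site: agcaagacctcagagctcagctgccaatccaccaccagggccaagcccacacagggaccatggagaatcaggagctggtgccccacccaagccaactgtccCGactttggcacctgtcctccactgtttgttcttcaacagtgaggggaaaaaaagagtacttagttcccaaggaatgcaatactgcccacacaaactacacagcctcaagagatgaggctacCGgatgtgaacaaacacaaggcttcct

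The 125 bases of Ins1 hold 4 CpGs and the 250 bases upstream of Ghrl hold 2, against 18 in the 204 bases of the Pyy island. MspI or TaqI sites on either strand (both motifs are palindromes) occurred in 60.5% of the 32851 RefSeq promoters of 300 bases on GRCm38.p6. Of the 11 such promoters listed for 7 of the hormone genes, 4 held a site, belonging to Gcg, Ghrl and Pyy.

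The Ins1 gene row had the same coverage as the tile that holds the 5′ part of the gene, and there was no promoter row, which places its calls in chr19:52264823-52265000, 500 to 677 bp downstream of the start site. The Ins1 start, with 1500 bp before it and 500 bp after it, holds 8 CpGs and 0 MspI or TaqI sites, so the Ins1 promoter was not sampled. The Ins2 gene row spans chr7:142678656-142699510, 20855 bp against 1071 bp for the RefSeq gene, because its annotation reaches far upstream. Its coverage equalled the sum of the tiles chr7:142685001-142690000 and chr7:142690001-142695000 in every group. All of its calls thus lie at least 5275 bp upstream of the RefSeq start of Ins2, and the row is called the Ins2 upstream region here.

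The Sst gene row, its promoter row and its CpG island rest on the same calls, in the 230 bp at the 5′ end of the gene (chr16:23890615-23890844, 20 CpGs). The Pyy gene row is its CpG island, while the Pyy promoter row lies apart from it in the 1500 bp upstream of the start (chr11:102107833-102109332, 17 CpGs), and the coverage of both adds up to that of their tile. Calls of the Gcg promoter row lie within 1350 bp upstream of the start, and those of the Ppy promoter row within the 1500 bp upstream (chr11:102101320-102102819). Of the 7 MspI or TaqI sites of the latter, 5 are in the stretch printed above. The Ghrl gene and promoter rows share 500 bp, so their values are not independent, and antisense transcripts overlap the gene. In all, the 10 rows gave 9 distinct measurements.

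By their means, these 9 measurements fell into a methylated and an unmethylated class with 1 value in between. Over all mice with reads, the Ghrl promoter had a level of 94.2% ± 8.88 (SD, n = 11), the Ins1 gene 92.8% ± 17.5 (n = 11), the Ghrl gene 88.8% ± 18.6 (n = 10), the Gcg promoter 85.0% ± 33.8 (n = 10) and the Ins2 upstream region 81.4% ± 14.0 (n = 11). Neighbours among these 5 differed by less than 1 SD. The Pyy promoter followed at 61.1% ± 9.82 (n = 11), its mice overlapping in level with those of the Ins2 upstream region. The Ppy promoter was at 6.41% ± 10.6 (n = 11), the Sst 5′ end at 2.59% ± 4.18 (n = 10) and the Pyy island at 1.69% ± 2.33 (n = 11), again with overlapping mice. Single mice crossed between the classes: at Ins1 1 mouse was at 41.7%, at the Ghrl gene 1 at 46.0% and at the Gcg promoter 1 at 0%.

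Set against the tables, 95.8% of gene rows were less methylated than Ins1 and 2.98% less than the Pyy gene row, around a median of 53.1%. Among promoters the median was 8.33%, 96.1% of rows were less methylated than Ghrl and 84.6% less than Gcg. The measured stretches are therefore spread over nearly the whole range rather than sharing a level. They differ in CpG content and in their place at the gene, and Pyy alone had 1.69% in its island and 61.1% in its promoter row. The spread thus does not describe the genes as wholes.

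**Figure D1:**
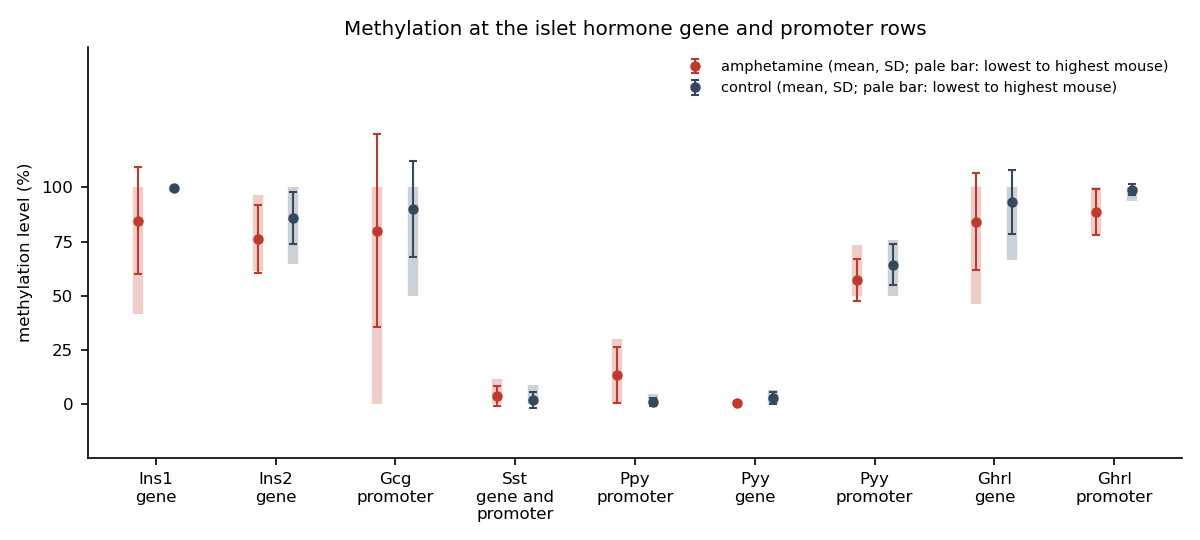
Methylation level (%, vertical axis) of the 9 distinct measurements in amphetamine-treated and control mice, with points for the group mean, whiskers for 1 SD and pale bars from the lowest to the highest mouse. Ins1, Ins2, Gcg and Ghrl sit high, Sst, Ppy and the Pyy gene row near 0, and the widest bar is that of the Gcg promoter in amphetamine-treated mice, from 0% to 100%.

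The first comparison asked whether prenatal amphetamine went with a different methylation of these genes. None of the 5 gene rows passed an adjusted p-value of 0.05 (limma with Benjamini-Hochberg adjustment over the table), and their lowest adjusted p was 0.984. In the table, 0.0116% of gene rows passed. None passed an unadjusted p of 0.05 either, against 4.38% of all gene rows. Of the 3 with reads in all mice, none separated the treatment groups without overlap, against 0.312% of gene rows. Of the 5 rows 1 was higher and 4 were lower after amphetamine, with a median difference of -9.11 percentage points, beside -0.0852 over all gene rows. In whole tissue, a change in the share of a cell type and a change in methylation within it cannot be told apart.

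Of the 5 promoter rows none passed the adjusted threshold, with a lowest adjusted p of 0.958 (limma), against 0.0164% of all promoters. The Ppy and Ghrl promoters, 2 of the 5, had an unadjusted p under 0.05, against 4.12% of promoters. None of the 3 rows with reads in all mice separated the groups, against 0.395% of promoters. Of these rows 2 were higher and 3 lower, with a median of -6.87 percentage points beside 0 over all promoters. Among the 26 tiles none passed the adjusted threshold (lowest adjusted p 0.965, limma), against 0.032% of tiles, and 1 had an unadjusted p under 0.05, against 4.41%. None of the 22 tiles with reads in all mice separated the groups, against 0.351% of tiles. Neither of the 2 CpG islands passed (0.0202% of islands did).

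The sexes were compared over the same mice. No gene row of a hormone passed the adjusted threshold, against 0.411% of gene rows, and none the unadjusted one, against 6.53%. The hormone genes are all autosomal, while the share over all gene rows includes X-linked rows. No promoter row passed after adjustment, against 0.595% of promoters, and 1 of 5, the Ghrl promoter, had an unadjusted p under 0.05, against 6.09%. No tile passed after adjustment, against 0.104% of tiles, and 2 of 26 before it, against 5.67%. Neither island passed, against 1.1% of islands. The lowest adjusted p over these rows was 0.742, of the Ghrl promoter (limma).

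For 6 of the 9 measurements the level of every mouse could be recovered. The same mice are summarized both by treatment and by sex, each time with mean, SD, lowest, highest and number. Where all controls but at most 1 share a value, such as 100%, these summaries leave a single solution. Such rows are uncommon, 2.6% of gene rows and 5.36% of promoters, and they are rows close to 0% or 100%. The step was chosen after the group values had been seen.

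At Ins1, the gene of the rodent insulin that arose by retroposition from the Ins2 lineage, the amphetamine-treated females had levels of 41.7%, 85.7% and 95.8%. Both amphetamine-treated males were at 100%, as were all 3 control males, and the control females were at 97.8%, 100% and 100%. Each of the 3 amphetamine-treated females was thus below each of the other 8 mice. By treatment, the level was 84.6% ± 24.7 (SD, n = 5) after amphetamine and 99.6% ± 0.907 (n = 6) in controls. This difference of -15.0 percentage points had a 95% interval from -35.9 to 5.93 and an adjusted p of 0.984 (limma), and it was -4.24 without the mouse at 41.7%. Coverage was low, at 14.2 calls per mouse after amphetamine and 13.8 in controls, and it was 18.8 in females and 8.2 in males.

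At the promoter row of Ghrl, the gene of the appetite hormone ghrelin, the amphetamine-treated females had levels of 77.8%, 80.4% and 84.6%. Every male was at 100%, treated or not, and the control females were at 93.8%, 100% and 100%. Again the 3 amphetamine-treated females were below the other 8 mice. Group levels were 88.5% ± 10.7 (SD, n = 5) after amphetamine and 99.0% ± 2.55 (n = 6) in controls. The difference was -10.4 percentage points, with a 95% interval from -20.0 to -0.777, an unadjusted p of 0.0369 and an adjusted p of 0.958 (limma). Between females (89.4% ± 9.83, n = 6) and males (100% in each of 5 mice) it was -10.6, with an unadjusted p of 0.0329 and an adjusted p of 0.742 (limma). Without the lowest amphetamine-treated mouse the treatment difference was -7.72, with an unadjusted p of 0.0920 in the limma fit. Both contrasts rest on the same 3 mice. Mean coverage was 39.0 after amphetamine, 29.7 in controls, 35.0 in females and 32.6 in males. It was low beside the medians over all promoters, 230.0 after amphetamine and 184.0 in controls. The least covered mouse had 8 calls.

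At the promoter row of Ppy, the gene of a hormone that restrains pancreatic secretion, the direction was opposite. Levels of the amphetamine-treated females were 16.0%, 20.0% and 30.0%, those of the control females 0%, 0% and 4.55%, and all 5 males, treated or not, were at 0%. The 3 amphetamine-treated females were above the other 8 mice. By treatment the promoter was at 13.2% ± 13.1 (SD, n = 5) and 0.758% ± 1.86 (n = 6). This difference of 12.4 percentage points had a 95% interval from 0.967 to 23.9, an unadjusted p of 0.0364 and an adjusted p of 0.958 (limma). It was 8.24 without the highest amphetamine-treated mouse, with an unadjusted p of 0.0752 in the limma fit. Females and males differed by 11.8 percentage points (adjusted p = 0.827, limma). Mean coverage was 30.6 after amphetamine and 34.7 in controls, and the males, all at 0%, had a mean of 39.8 against 27.0 in females. This was low beside the medians over all promoters, 230.0 after amphetamine and 184.0 in controls. The least covered mouse had 11 calls.

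Within females the treatment difference was -24.9 percentage points at Ins1 (74.4% ± 28.8 against 99.3% ± 1.28, SD, n = 3 each), -17.0 at the Ghrl promoter (80.9% ± 3.45 against 97.9% ± 3.61) and 20.5 at the Ppy promoter (22.0% ± 7.21 against 1.52% ± 2.62). At Ins1 the males had only 3 to 15 calls each. Within males the difference was 0 in all 3 rows, with every male, 2 treated and 3 control, at 0% or 100%. As these rows were singled out by this pattern, no test is given for them. In the other solved rows the difference within females was -26.3 at the Ghrl gene, -33.3 at the Gcg promoter and 1.99 at the Sst 5′ end, and within males 11.1, 16.7 and 2.83.

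Across the solved rows such a pattern was uncommon. By construction nearly all controls share a value in these rows, so mostly amphetamine-treated mice can stand apart there. Of the solved rows in which mice differed, the 3 amphetamine-treated females lay beyond all other mice in 8 of 608 gene rows, or 1.32%, and in 16 of 1202 promoters, or 1.33%. Among the hormone genes it was 1 of 3 gene rows and 2 of 4 promoter rows. These are not separate measurements, as both Sst rows rest on the same calls and the Ghrl rows share 500 bp. The pattern was taken from these rows, so their count cannot be weighed against those shares. Both amphetamine-treated males lay beyond all others in 24 of the 608 gene rows and 44 of the 1202 promoters. No row of a hormone gene was among them, which says little with so few hormone rows. The male count needs only 2 mice to stand apart, not 3, so it cannot be set against that of females. The hormone genes were chosen by name, with earlier results of these data known, and the pattern was defined on their values. It therefore carries no test here. Summed over all tiles, coverage after amphetamine was 1.24 times that of controls, and in females 1.12 times that of males. The coverage of single mice was not solved and its part in the pattern was not tested.

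**Figure D2:**
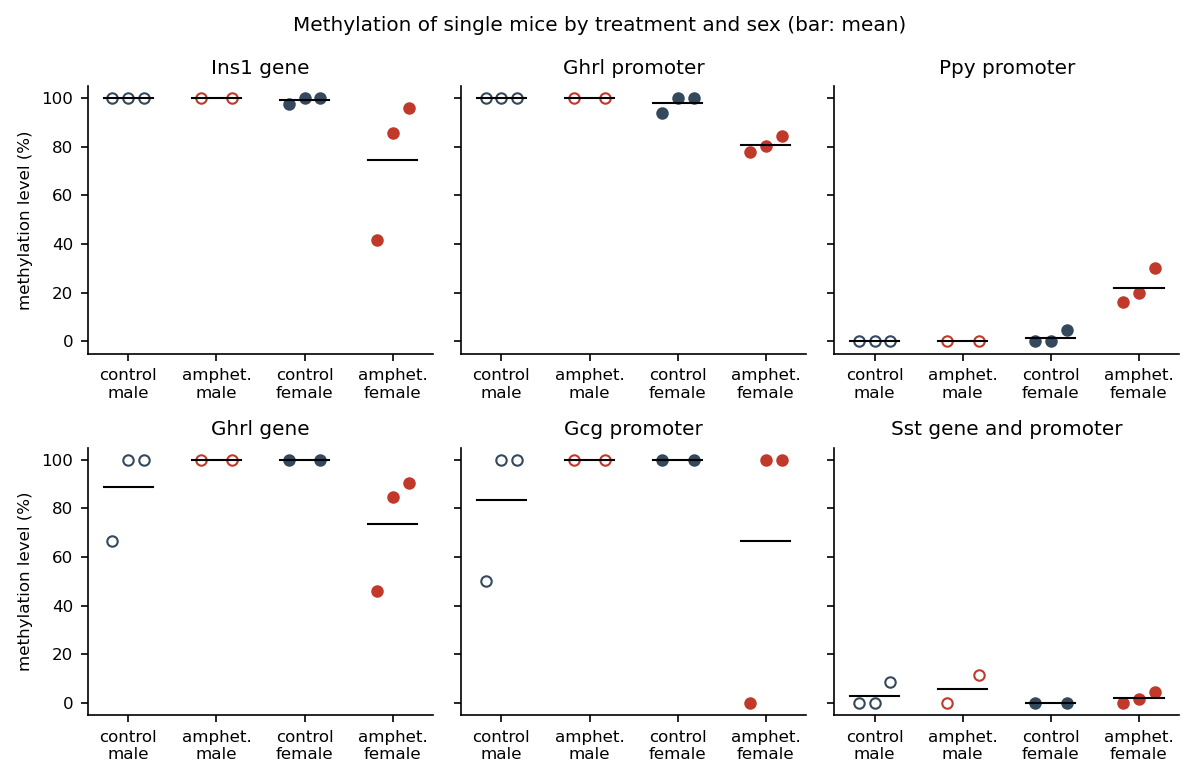
Methylation level (%) of each mouse in the 6 solved measurements, by treatment and sex, with open circles for males, filled circles for females, red for amphetamine, blue-grey for controls and a bar for the mean. In the upper row the 3 amphetamine-treated females stand apart from the other 8 mice, at 41.7% to 95.8% for Ins1, 77.8% to 84.6% for the Ghrl promoter and 16.0% to 30.0% for the Ppy promoter, whereas in the lower row they overlap with other mice.

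The other solved rows did not follow this pattern. In the Ghrl gene row the amphetamine-treated females were at 46.0%, 84.6% and 90.5% and the 2 control females with reads at 100%, but a control male was at 66.7%, all other males being at 100%. At the Gcg promoter 1 amphetamine-treated female was at 0% and 1 control male at 50.0%, and the other 8 mice with reads were at 100%. In each of these rows 1 control female had no reads. At the Sst 5′ end the highest level was 11.4%, in an amphetamine-treated male, followed by 8.57% in a control male, and by 4.41% and 1.55% in amphetamine-treated females. All other mice with reads were at 0%, among them both control females.

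For these rows the groups were not separable. Treatment differences were -9.11 percentage points for the Ghrl gene (95% interval -34.5 to 16.2), -10.0 for the Gcg promoter (-58.4 to 38.4) and 1.75 for the Sst 5′ end (-4.31 to 7.81). All 3 changed sign when 1 mouse was left out, to 0.456 for the Ghrl gene and 10.0 for the Gcg promoter without the lowest amphetamine-treated mouse, and to -0.223 for Sst without the highest. The Gcg interval leaves nearly any difference possible. For Sst, whose peptide holds back the release of insulin and glucagon, the interval was narrow, with no mouse above 11.4%. Its coverage was uneven, at 74.2 after amphetamine and 24.7 in controls. The latter was no higher than the 25.7 in controls at the Gcg promoter.

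The Ins2 upstream region was the most deeply covered of the rows, with a mean of 217.6 calls after amphetamine and 178.5 in controls. Levels ran from 61.2% to 96.4% with a mean of 76.2% ± 15.8 (SD, n = 5) after amphetamine, and from 64.4% to 100% with a mean of 85.8% ± 12.0 (n = 6) in controls. The groups overlapped over most of their range, and the difference of -9.58 percentage points had a 95% interval from -27.1 to 7.93. It was -5.83 without the lowest amphetamine-treated mouse and -14.6 without the highest. Females were at 80.1% ± 13.2 (n = 6) and males at 83.0% ± 16.3 (n = 5). Of its 2 tiles, the nearer one was at 67.1% ± 27.0 against 82.8% ± 22.2 by treatment and the farther one at 86.3% ± 10.5 against 89.3% ± 8.17.

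Pyy, a gut and islet peptide that slows digestion and appetite, was measured in 2 stretches of unlike level. In the island, levels ran from 0% to 1.34% with a mean of 0.398% ± 0.597 (SD, n = 5) after amphetamine and from 0% to 6.12% with a mean of 2.76% ± 2.74 (n = 6) in controls. The difference was -2.36 percentage points (95% interval -5.50 to 0.780), and the lower ends of both groups coincide. In the promoter, levels ran from 50.0% to 73.5% (57.4% ± 9.75, n = 5) and from 50.0% to 75.9% (64.2% ± 9.54, n = 6). That difference was -6.87 percentage points (95% interval -19.4 to 5.64), and from -10.9 to -4.54 with 1 mouse left out, lowest without the highest amphetamine-treated mouse and nearest to 0 without the highest control. Females and males differed by less than 1 SD in both, at 1.59% and 1.80% in the island and at 61.2% and 61.1% in the promoter.

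**Figure D3:**
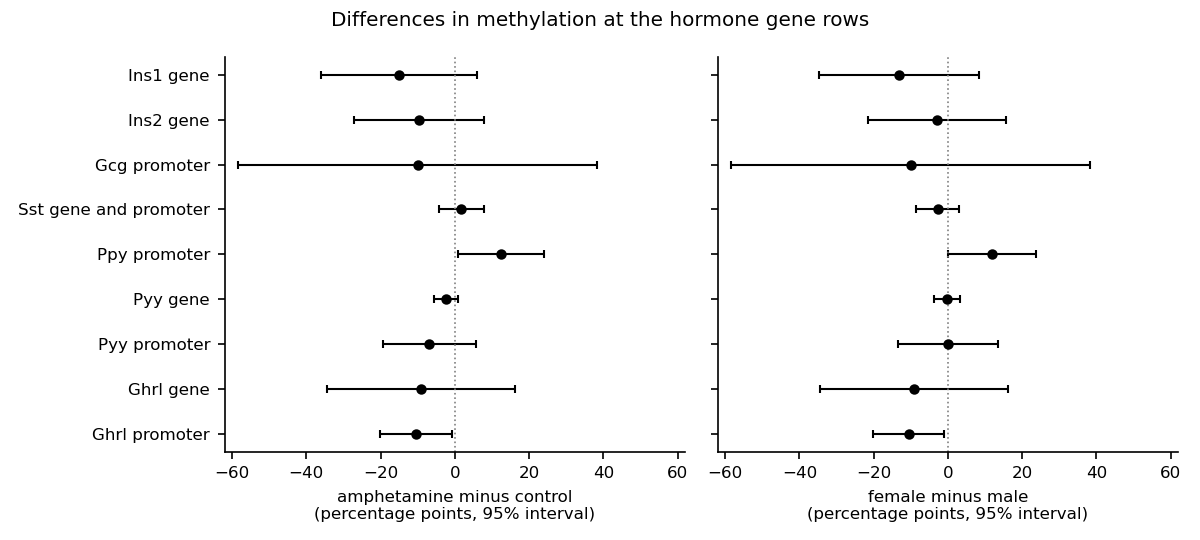
Difference in methylation (percentage points, horizontal axis) between amphetamine-treated and control mice (left) and between females and males (right) for the 9 distinct measurements, with points for the difference and whiskers for its 95% interval. On the left only the intervals of the Ppy promoter (0.967 to 23.9) and the Ghrl promoter (-20.0 to -0.777) leave out 0, and on the right that of the Ghrl promoter.

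Tiles extended the view to 10 kb around each gene. Counted once, 11 of the 26 tiles were higher and 15 lower after amphetamine, with a median of -2.04 percentage points beside 0 over all tiles, and all 26 overlapped in range between treatment groups. Most were highly methylated. The exceptions were the tile at the Sst start (3.47% and 1.71% in amphetamine-treated and control mice), and 4 tiles around Ppy and Pyy, which lie next to each other on chromosome 11. Over all mice, 3 of these were at 3.96%, 10.5% and 21.4%, and the tile over the 3′ end of Ppy was at 58.5%, with single mice from 0% to 100%. As Ppy had no gene row, the calls of that tile are taken to lie outside Ppy. Since Ppy and Pyy share 4 tiles, their surroundings cannot be counted separately.

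The tile chr16:23900001-23905000, upstream of Sst beyond a further tile, had the lowest treatment p of all 26. Its level was 91.9% ± 4.61 (SD, n = 5; 86.5% to 96.2%) after amphetamine and 72.4% ± 15.8 (n = 6; 43.7% to 87.6%) in controls. The groups overlapped only at the edge. The difference was 19.5 percentage points (95% interval 3.73 to 35.2), with an unadjusted p of 0.0202 and an adjusted p of 0.965 (limma). The tile between it and the gene was at 81.6% ± 16.5 and 78.1% ± 16.1.

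The tile at the Ppy start, chr11:102100001-102105000, was at 18.6% ± 17.7 (n = 5; 0% to 40.0%) after amphetamine and 3.77% ± 6.40 (n = 6; 0% to 16.7%) in controls. It was also at 17.2% ± 16.6 (n = 6) in females and 2.49% ± 4.42 (n = 5) in males. It contains the Ppy promoter row, whose coverage was 30.6 of its 86.6 calls after amphetamine. Its treatment difference of 14.8 percentage points had an unadjusted p of 0.0719 and an adjusted p of 0.965 (limma). The Pyy start tile, which holds the calls of the island and promoter above, was at 18.9% ± 4.23 (n = 5) and 23.6% ± 4.57 (n = 6). The tile beyond the 3′ end of Ppy, chr11:102090001-102095000, was at 89.1% ± 6.67 in females (n = 6) and 75.4% ± 9.03 in males (n = 5), with an unadjusted p of 0.0140 and an adjusted p of 0.775 (limma).

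Around Ins1, the start tile repeats the gene row, and the other 3 tiles were at 70.9%, 94.2% and 92.1% after amphetamine against 78.6%, 96.9% and 85.2% in controls. Of these the tile over the 3′ end of Ins1 had a coverage under 10 in both groups. As the gene row matched the start tile alone, the calls of this 3′ tile lie downstream of the gene. Near Ins2, the tile that holds the start site had reads in 9 mice, and by the coverage match all of these calls lie downstream of the gene. All 4 amphetamine-treated mice with reads were at 100%, while controls ran from 0% to 100% (70.9% ± 41.9, n = 5). The farther upstream tile of Ins2, chr7:142690001-142695000, was at 82.9% ± 8.15 in females (n = 6) and 94.0% ± 5.74 in males (n = 5), with an unadjusted p of 0.0263 and an adjusted p of 0.838 (limma).

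Near Iapp, whose peptide forms the islet amyloid of type 2 diabetes in humans, the tile chr6:142300001-142305000 overlaps the 3′ part of the gene. As Iapp had no gene row, the calls of this tile are taken to lie downstream of the gene. That tile was at 87.0% ± 5.28 (n = 5; 80.6% to 91.3%) after amphetamine and 86.2% ± 4.46 (n = 6; 80.0% to 91.5%) in controls. The difference was 0.904 percentage points, with a 95% interval from -5.75 to 7.56. The Iapp tile with the smallest treatment p lay farther downstream and had reads in 4 amphetamine-treated and 2 control mice, at 65.0% ± 47.3 and 100%. The Ghrl start tile was at 88.1% ± 14.7 and 95.6% ± 8.89. Beside the Gcg start, the upstream tile was at 88.8% ± 5.49 and 92.1% ± 4.13, with a smaller SD than the promoter row in both groups.

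**Figure D4:**
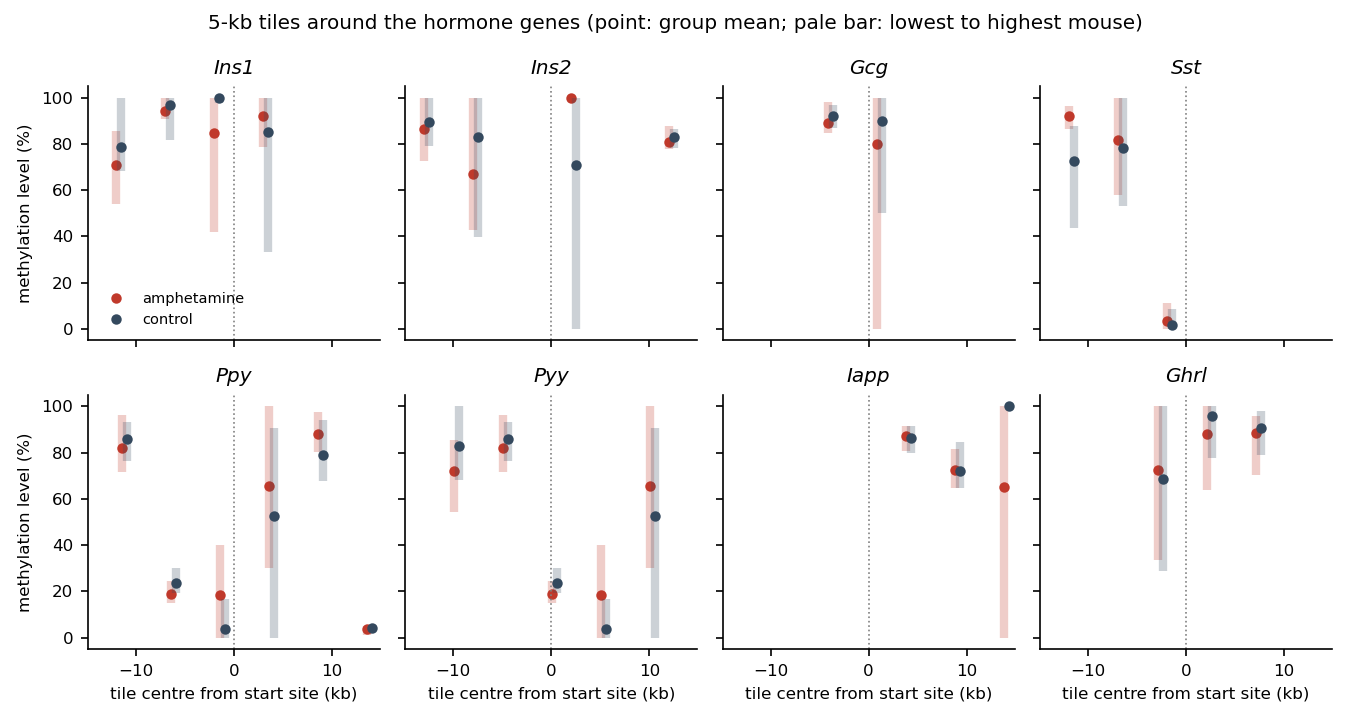
Methylation level (%) of the 5-kb tiles near each gene against the distance of the tile centre from the start site (kb, negative upstream), with red for amphetamine, blue-grey for controls, points for the group mean and pale bars from the lowest to the highest mouse. Levels drop near the starts of Sst, Ppy and Pyy and stay high around Ins1, Ins2, Gcg, Iapp and Ghrl, and the bars of both groups overlap in all 26 tiles.

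Genes whose 4 group means (amphetamine, control, female, male) lay nearest to those of a hormone gene were looked up among 22934 other genes for Ins2 and Pyy, or 22935 for Ins1, all with reads in every mouse. Nearest to Ins1 were Gm8810, at a distance of 1.05 percentage points, and Pabpn1l, at 3.14, and 4 genes lay within 5. Nearest to the Ins2 upstream region were Gm20707 (1.5) and Pcdhb20 (1.57), with 126 genes within 5, and nearest to the Pyy island were Xbp1 (0.142) and Erh (0.237), with 1532 within 5. These distances rest on 4 means over the same mice.

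The other genes of hormone handling were taken from lists. Of 14 genes for the processing and storage of peptide hormones, all with a gene row, 7 were higher and 7 lower after amphetamine. None passed the adjusted threshold by treatment, against 0.0116% of all gene rows, and none before adjustment, against 4.38%. Their median difference was -0.137 percentage points, beside -0.0852 over all genes. Of their 12 promoter rows 1 had an unadjusted p under 0.05, against 4.12% of all promoters. It was that of Cpe, the carboxypeptidase that trims prohormones, at 4.76% ± 2.50 after amphetamine and 1.71% ± 2.04 in controls (n = 5 and 6; unadjusted p = 0.049999 and adjusted p = 0.958, limma). By sex, 2 of the 14 gene rows had an unadjusted p under 0.05, against 6.53% of all gene rows. The prohormone convertase gene Pcsk2 was at 72.9% in females and 68.5% in males (adjusted p = 0.526, limma). Pcsk1n, an X-linked inhibitor of the convertase Pcsk1, was at 21.5% ± 6.72 in females and 6.16% ± 2.52 in males (adjusted p = 0.0996, limma). Of the 12 promoters 1 had an unadjusted p under 0.05 by sex, against 6.09% of all promoters, that of the granule protein gene Ptprn2, which was at 0.0947% and 2.15% (adjusted p = 0.373, limma).

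Of 16 receptor genes for these hormones, 10 gene rows were higher and 6 lower after amphetamine. None had an unadjusted p under 0.05 by treatment, against 4.38% of all gene rows. Among their 15 promoters 1 did, against 4.12% of all promoters. It was that of the somatostatin receptor gene Sstr4, at 1.38% ± 1.14 after amphetamine and 4.01% ± 1.46 in controls (n = 5 and 6; adjusted p = 0.958, limma). By sex, Sstr1 alone among the gene rows had an unadjusted p under 0.05 (1 of 16, against 6.53% of all gene rows), at 3.18% in females and 0.218% in males (adjusted p = 0.728, limma), and none of the promoters did. No gene of either list passed the adjusted threshold in either comparison. By treatment 0.0116% of all gene rows and 0.0164% of all promoters passed, and by sex 0.411% and 0.595%.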

How the data were processed

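DNA methylation was profiled by RRBS in P0 pancreata of 11 mice. Per the study's methods, DNA was cut by MspI and TaqI, and the authors aligned single-end reads to mm10 with Bismark, and summarized CpGs per region with RnBeads. For Bismark and limma no version is given in the sources used here. The deposited tables give, for each region and group, the mean methylation as a fraction (printed here as percent) with SD, lowest and highest mouse and number of mice without reads, all computed by the authors. Coverage, deposited as a signal, was averaged by the authors over mice and not normalized. The tables also hold the authors' own comparisons (differences, quotients, p-values, ranks), which were not used. Levels of single mice came only from solving the group summaries, in the rows where that was possible. Depth per library was not analysed here. Median coverage of promoters was 230.0 after amphetamine, 184.0 in controls, 217.0 in females and 190.0 in males, and coverage counts calls, not independent molecules.

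From mean, SD and n, the limma test (limma 3.58.1, R 4.3.3) was rebuilt for each of the 8 tables, two-sided, without covariates, with Benjamini-Hochberg adjustment over the table, a threshold of 0.05 and 95% intervals. It was tested on simulated data, as was the recovery of single mice. Replicates are mice, some of which may share a litter, so p-values measure only the spread between these samples. Intervals are symmetric and can pass 0% or 100%. Gene positions follow the deposited gene table or, where it has no row, GENCODE vM21. Named were all 8 genes, for each the tile with the start site and the tile of lowest treatment p, the 2 most alike genes for rows with reads in all mice (mean coverage at least 10 in every group), and listed genes with an unadjusted p under 0.05. Tiles with an unadjusted p under 0.05 by sex, and neighbouring tiles, were named after their values were seen. The members and lists were chosen with earlier results of these data known. Alternatives were coverage of at least 10 or 30, reads in all mice, a trended or robust prior, SD above 0 in both groups, unadjusted p-values, leaving out the extreme mice of each group, other summaries of tiles, and single sexes. Further steps ran in Python 3.11.15 (scipy 1.17.1, numpy 2.4.6, pandas 2.3.3).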

Additional observations from a re-analysis of the deposited data

Results flagged for a closer look

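A mouse was marked where, by Dixon's criterion, the gap between the most extreme mouse and the rest was too large a part of its group's range. As the criterion had to be worked out from the mean, SD, lowest and highest value, it was applied only where these force the gap, and chance marks about 1 in 20 groups. The mice so marked in 68 groups were concentrated in rows where nearly all mice sat at 0% or 100%, for which any departure is marked.

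In the Ins1 gene row, the lowest amphetamine-treated mouse, a female at 41.7%, stood apart from the other amphetamine-treated mice (mean 95.4%) and from the other females (95.9%), and a control mouse at 97.8% from 5 controls at 100%. At the Gcg promoter a mouse at 0% was apart among amphetamine-treated mice and among females, and a mouse at 50.0% among controls and among males, the rest being at 100%. In the Ghrl gene row a mouse at 66.7% was apart among controls and males, and in the Ghrl start tile one at 77.8% was. The Ghrl promoter had a control mouse at 93.8%, the others being at 100%. At the Sst 5′ end a control mouse was at 8.57% and the others with reads at 0%, and at the Ppy promoter a control mouse was at 4.55% and the others at 0%. In the Ppy start tile a control mouse at 16.7% was apart from a mean of 1.19%, and a male at 10.2% from a mean of 0.568%. In the tile with the Ins2 start site, a female at 0% was apart from the other females with reads, at 100%.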

How the results depend on the processing

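No row or tile of a hormone gene passed an adjusted p of 0.05 under any of the filters and variance priors tried. At an unadjusted p under 0.05, 2 promoters and 1 tile were past the threshold by treatment, and 1 promoter and 2 tiles by sex. Over whole tables the counts by treatment changed: 83 tiles passed in the main fit, 4 at a coverage of at least 10, 2 at 30, 1 with reads in all mice and 0 with an SD above 0 in both groups. For gene rows 3 passed and for promoters 4, and 0 of either under those 4 filters. With the trended prior 5 gene rows passed, and 1, 1, 0, 2 and 0 of 3 islands at a coverage of 10 or 30, reads in all mice, trend and SD above 0. By sex, 270 tiles passed, against 82, 90, 78 and 46 under the same filters in that order.

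Leaving out 1 mouse turned the sign of several small differences. Between treatments, in percentage points, these ranged from -0.223 to 3.47 at the Sst 5′ end, from -15.8 to 0.456 at the Ghrl gene and from -20.0 to 10.0 at the Gcg promoter. Between sexes they ranged from -7.55 to 1.35 in the Ins2 upstream region (also 0.881 without the lowest female), from -1.09 to 0.872 at the Pyy gene (also 0.109), from -15.8 to 0.456 at the Ghrl gene, from -20.0 to 10.0 at the Gcg promoter and from -2.66 to 3.81 at the Pyy promoter (also -1.66). The sign turned without the highest amphetamine-treated mouse for Sst and the lowest for Ghrl and Gcg, without the lowest female for Ghrl, Gcg, Ins2 and the Pyy gene, and without the highest male for Ins2 and the Pyy gene. Among males alone the treatment difference was 11.1 at the Ghrl gene and 16.7 at the Gcg promoter, opposite to that over both sexes. The cause was not tested. The Ghrl promoter difference ranged from -13.3 to -7.72 and that of the Ppy promoter from 8.24 to 15.7, and the unadjusted p was above 0.05 without the lowest amphetamine-treated mouse for Ghrl (0.0920) and the highest for Ppy (0.0752), and without a control at 100% (0.0607) or 0% (0.0586), all from the limma prior. Averages over the tiles of a gene moved most when limited to overlapping tiles, for Sst from 59.0% to 3.47% after amphetamine. No paired analysis was possible because the labels give no replicate numbers shared between groups. Among the gene and promoter rows, coverage was lowest at Ins1, at 14.2 after amphetamine and 13.8 in controls. The Ghrl gene, the Gcg promoter and the Sst 5′ end each lacked reads in a control.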
